A study of Mus musculus with 24 samples.

Results

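Npy, Omp, Cdhr1, Tbx21, Eomes, Doc2g, Clca3a1 and Mybpc1 are 8 genes whose reads lay mostly in the olfactory bulb libraries of a survey of sorted mouse astrocytes. They are 8 of the 24417 gene names in tables that list every gene for every library. They were chosen by their read counts in earlier results of these same data, high in the olfactory bulb libraries and low elsewhere, so their difference between regions is given as a description without a test. The comparison of genotypes within the olfactory bulb did not enter that choice.

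The study sorted cells carrying an Aldh1l1-GFP reporter, which marks astrocytes, from the brains of 20-week-old C57BL6 mice and sequenced their RNA. The 24 libraries cover 4 regions (olfactory bulb, hippocampus, cortex and brainstem), each with 3 libraries labelled knockout (NFIAfl/fl; Aldh1l1-CreER; Aldh1l1-GFP) and 3 control libraries (NFIAfl/fl; Aldh1l1-GFP). Both groups carry the floxed allele of Nfia, a nuclear factor I transcription factor, and the reporter, and the control mice lack the Cre. The Cre and the reporter use the same astrocyte promoter, which can also be active in related glia and progenitors. The labels do not say whether the libraries of a group came from separate mice, so p-values measure only the spread between these libraries.

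The libraries held between 1090777 and 24297573 reads, and those of the olfactory bulb between 4503269 and 9425474. Ribosomal RNA of the Rn45s locus took 20.8% of the reads in the olfactory bulb library labelled knockout 3, against 2.14% to 3.33% in the other 5 olfactory bulb libraries. Its share was 17.7% to 20.9% in cortex libraries, 13.5% to 25.6% in brainstem libraries and 0.966% to 2.87% in hippocampal libraries. The part of this regional difference in the folds between regions was not tested. Nfia itself averaged 7975 ± 558 normalised read counts (reads divided by a size factor set over all 24 libraries) in the olfactory bulb libraries labelled knockout and 4515 ± 481 in the controls (SD, n = 3 each). The level of the targeted gene was therefore not lower in the libraries labelled knockout. In the other regions Nfia was also higher in libraries labelled knockout than in controls. Its means were 11822 and 6190 in hippocampus, 10556 and 6435 in cortex, and 9626 and 4602 in brainstem, libraries labelled knockout first. Each library holds a single value for the gene. That value cannot show whether the floxed part was lost, so the label could not be checked by it. The libraries are called by their label throughout.

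The olfactory bulb is the first relay of smell. Axons of olfactory sensory neurons enter it wrapped by olfactory ensheathing glia and contact mitral and tufted cells, the bulb's output neurons, while granule and periglomerular interneurons are renewed there through adult life. Npy encodes neuropeptide Y, a transmitter of interneurons that is also made by ensheathing glia. Omp encodes olfactory marker protein, found in mature olfactory sensory neurons and their axons. Cdhr1 encodes a cadherin-related adhesion protein of mitral and tufted cells. Tbx21 (T-bet) and Eomes (Tbr2) encode T-box transcription factors of those neurons. Doc2g belongs to the double C2 domain family, Clca3a1 to the family of calcium-activated chloride channel regulators, and Mybpc1 encodes the slow-type myosin-binding protein C known from muscle. In bulk libraries, fewer cells of a type and less RNA per cell cannot be told apart.

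On the mm10 genome with GENCODE M21 gene models, Npy lies on chr6:49822710-49829507 (plus strand), Omp on chr7:98143359-98145502 (minus), Cdhr1 on chr14:37077857-37098347 (minus) and Tbx21 on chr11:97098071-97115331 (minus). Eomes lies on chr9:118478212-118486132 (plus), Doc2g on chr19:4003313-4007005 (plus), Clca3a1 on chr3:144729677-144760977 (minus) and Mybpc1 on chr10:88518279-88605152 (minus). The 8 genes are thus spread over 8 chromosomes. Omp is a single exon that lies within an intron of Capn5 on the same strand, and the gene models share no exonic base. Clca3a1, Mybpc1 and Eomes overlap the exons of antisense models by 170, 252 and 118 bases, and Doc2g shares 1926 of its 3035 exonic bases with the same-strand model Gm49405. Whether the counting used strand is not given in the sources used here, so reads in those shared bases cannot be told apart.

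Because the survey targets Nfia, promoters were read for the nuclear factor I core letters TTGGC on either strand. RefSeq windows (GRCm38.p6, from 250 bases before the transcript's start to 50 after it) matched 7 of the 8 genes, all but Omp. The 3 below are shown because Eomes and Clca3a1 held the most matches and Npy, with the highest level per kilobase, held none. Capitals mark the core as it reads on the gene's own strand (GCCAA). Npy lies at chr6:49822460-49822759 (plus strand), Clca3a1 at chr3:144760928-144761227 (minus strand) and Eomes at chr9:118477939-118478238 (plus strand).
Npy: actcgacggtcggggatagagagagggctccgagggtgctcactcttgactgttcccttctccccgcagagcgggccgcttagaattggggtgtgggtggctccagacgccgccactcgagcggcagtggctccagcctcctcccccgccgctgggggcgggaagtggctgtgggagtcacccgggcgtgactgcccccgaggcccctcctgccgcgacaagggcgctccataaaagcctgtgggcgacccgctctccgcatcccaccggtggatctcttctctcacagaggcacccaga
Clca3a1: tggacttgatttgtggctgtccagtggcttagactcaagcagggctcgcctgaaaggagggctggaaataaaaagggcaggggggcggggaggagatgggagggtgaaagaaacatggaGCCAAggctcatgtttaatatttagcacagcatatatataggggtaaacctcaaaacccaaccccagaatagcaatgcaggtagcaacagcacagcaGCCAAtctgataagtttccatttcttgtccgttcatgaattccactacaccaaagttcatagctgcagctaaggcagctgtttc
Eomes: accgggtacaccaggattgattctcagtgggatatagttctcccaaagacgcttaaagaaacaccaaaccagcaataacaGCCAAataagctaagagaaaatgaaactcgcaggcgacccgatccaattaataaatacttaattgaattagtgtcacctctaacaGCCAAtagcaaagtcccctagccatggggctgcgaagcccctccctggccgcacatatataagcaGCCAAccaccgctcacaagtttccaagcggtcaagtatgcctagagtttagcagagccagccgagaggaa
The cores began 131 and 34 bases before the start in Clca3a1, and 170, 85 and 20 bases before it in Eomes. A core was also found in Tbx21, 64 bases before the start, which makes 3 of 7 members, against 46.7% of the 32851 RefSeq windows of the same length. The paired palindrome, TTGGC then any 5 bases then GCCAA, which holds the core on both strands, was in 0 of the 7 and in 0.0365% of all windows. The palindrome of the early B-cell factors (EBF), TCCC then any 2 bases then GGGA, was in 0 of the 7 and 0.904% of all windows, and the T-box letters TCACACC, which do not overlap the others, were in 0 of the 7 and 3.98% of all. G and C made up 68.0% of the Npy window, 48.0% of the Clca3a1 window and 47.3% of the Eomes window, with a median of 52.7% over all windows. These matches are descriptions of letters and say nothing about binding.

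Values below are normalised read counts with that joint size factor, since the deposited cortex values lie on a different scale. Npy, the neuropeptide, had 631, 585 and 714 normalised read counts in the olfactory bulb libraries labelled knockout, against 950.0, 619 and 729 in the control libraries. The groups overlapped, with 2 of the 3 controls above every library labelled knockout. Npy was the steadiest member, with 1.62-fold between its highest and lowest olfactory bulb library. Npy was also the member found most widely, with reads in 18 of the 18 libraries of the other regions. In hippocampus it had 16.9, 46.7 and 6.57 in libraries labelled knockout and 1.90, 11.1 and 2.60 in controls. In cortex its values ran from 11.6 to 20.9 in libraries labelled knockout and from 7.57 to 20.2 in controls. In brainstem they ran from 3.20 to 24.4 in libraries labelled knockout and from 2.02 to 2.14 in controls. These brainstem values rest on 19, 2 and 1 reads in libraries labelled knockout and 2, 1 and 1 in controls, so most are the value of 1 or 2 reads.

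Pooling the reads of both genotypes, the Npy level in olfactory bulb was 50.8 times that in hippocampus (95% exact counting interval 44.2 to 58.6), 49.0 times that in cortex (38.7 to 62.9) and 92.9 times that in brainstem (63.3 to 142). By genotype, the fold over hippocampus was 33.5 (28.9 to 39.2) in libraries labelled knockout and 181 (119 to 289.6) in controls, and the fold over brainstem 45.3 (29.8 to 72.4) and 354 (138 to 1300.1) in the same groups. The pooled folds thus lie between unlike values of the 2 groups, and the intervals cover counting error only. The fold over brainstem, on the fewest reads, has the widest interval of the 3. The mean level in the 6 olfactory bulb libraries made up 95.3% of the sum of Npy's 4 regional levels.

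Omp, the sensory axon gene, had 168, 65.1 and 217 normalised read counts in the olfactory bulb libraries labelled knockout, against 242, 135 and 99.9 in the controls. The lowest library was labelled knockout and the highest was a control, with 3.73-fold between them. Omp had no read in any hippocampal library, so its level in olfactory bulb was at least 709.5-fold higher than there, with a floor of 3 reads over the region's 6 libraries. Outside the olfactory bulb it had 11 reads in all, in 3 libraries: 2.09 normalised counts in a cortex library labelled knockout, 1.55 in a cortex control and 12.8, from 8 reads, in a brainstem library labelled knockout. Capn5, the gene around it, averaged 103 ± 38.1 in olfactory bulb libraries labelled knockout and 82.8 ± 9.01 in controls, and 114 ± 33.2 and 124 ± 12.1 in the same hippocampal groups, where Omp was at 0 (SD, n = 3 each).

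Cdhr1, the adhesion protein of mitral and tufted cells, had 94.6, 143 and 347 normalised read counts in the olfactory bulb libraries labelled knockout, against 143, 480.4 and 127 in the controls. A single library of each group stood above the other 4, which made Cdhr1 the most variable member, with 5.08-fold between its extremes. In hippocampus its values ran from 1.67 to 4.18 in libraries labelled knockout and from 1.90 to 3.71 in controls, and the olfactory bulb level was 77.6 times the hippocampal one. It was detected in 1 library of each group in cortex and in 1 library labelled knockout in brainstem, on no more than 5 reads each.

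Tbx21 was close to the limit of detection. It had 4, 5 and 3 reads in the olfactory bulb libraries labelled knockout, against 4, 0 and 0 in the controls, and none in the other 18 libraries. These 16 reads allow no comparison of genotypes. With both genotypes pooled, the lower bound on the olfactory bulb level was 11.3-fold over hippocampus, but only 3.65-fold over cortex and 2.57-fold over brainstem. In libraries labelled knockout, on 12 reads, the bounds were 12.3, 3.19 and 1.95 in the same order. In controls, on 4 reads of 1 library, they were 1.79, 0.792 and 0.636, so controls show no difference from cortex or brainstem. These bounds leave out counting error in the olfactory bulb reads.

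Eomes, the other T-box gene, had 38.6, 29.1 and 9.99 normalised read counts in the olfactory bulb libraries labelled knockout, against 16.5, 34.6 and 19.7 in the controls. The highest and the lowest library both carried the knockout label. The library labelled knockout 3 had the lowest Eomes value, from 8 reads, and 1 of the 2 highest Cdhr1 values. Labelled knockout 1 had the highest Eomes and the lowest Cdhr1 value. Control 2 went the other way, with the highest Cdhr1 and the second highest Eomes value. These genes of the same neurons thus followed each other in some libraries and not in others. Outside the olfactory bulb, Eomes had 10.3 normalised counts (8 reads) in a brainstem library labelled knockout, and 8.57 (4 reads) and 3.19 (3 reads) in brainstem controls. It also had 2 reads in each of 2 hippocampal libraries labelled knockout. The brainstem maximum was above the lowest olfactory bulb library, so Eomes was not separated from brainstem library by library.

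Doc2g, the C2 domain gene, had 51.9, 60.9 and 98.7 normalised read counts in the olfactory bulb libraries labelled knockout, against 77.1, 31.4 and 48.6 in the controls. Its highest library was labelled knockout and its lowest was a control, with the other 4 interleaved. Elsewhere it reached 13.9 in a cortex control and 2.14 at most in the other regions, and it was 0 in all 3 cortex libraries labelled knockout.

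Clca3a1, the channel regulator family gene, had 618, 657 and 678 normalised read counts in the olfactory bulb libraries labelled knockout, against 628, 393 and 361 in the controls. The libraries labelled knockout lay close together and 2 of the 3 controls lay below them, while control 1 fell inside their range. Its neighbouring paralog Clca3a2, chosen after its values were seen, averaged 17.3 ± 4.50 in the same libraries labelled knockout and 18.2 ± 11.3 in controls (SD, n = 3 each), and reads shared between near-identical stretches of these paralogs could be split between them. Outside the olfactory bulb, Clca3a1 was highest in a cortex control, with 24.9 normalised counts from 23 reads. The pooled olfactory bulb level was 386 times that in hippocampus, 84.4 times that in cortex and 123 times that in brainstem. By genotype the fold over cortex was 239 in libraries labelled knockout and 42.6 in controls, where that 1 library held 23 of the 24 reads. The fold over brainstem was 513 in libraries labelled knockout, on 2 brainstem reads, and 63.1 in controls, on 13.

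Mybpc1, the myosin-binding protein gene, had 207, 214 and 184 normalised read counts in the olfactory bulb libraries labelled knockout, against 311, 238 and 199 in the controls. The groups overlapped, with 2 of the 3 controls above every library labelled knockout. It had no read in hippocampus, where the bound on the fold is at least 1133, and 2 reads in 1 cortex control. In brainstem, however, it had 89.9, 12.8 and 11.4 normalised read counts in libraries labelled knockout, against 2.13, 0 and 122 in controls. Its pooled level in olfactory bulb was 5.56 times that in brainstem (4.68 to 6.66). This was the smallest pooled brainstem fold among the 7 members other than Tbx21. Eomes was next with 5.85 (3.46 to 10.7). These intervals cover counting error only and leave out the spread between libraries. Of the 139 Mybpc1 reads in brainstem, 70 were in the library labelled knockout 1 and 57 in control 3. The intervals also overlap, so the order of Mybpc1 and Eomes is not established. By genotype the Mybpc1 fold over brainstem was 4.03 in libraries labelled knockout and 7.63 in controls.

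**Figure D1:**
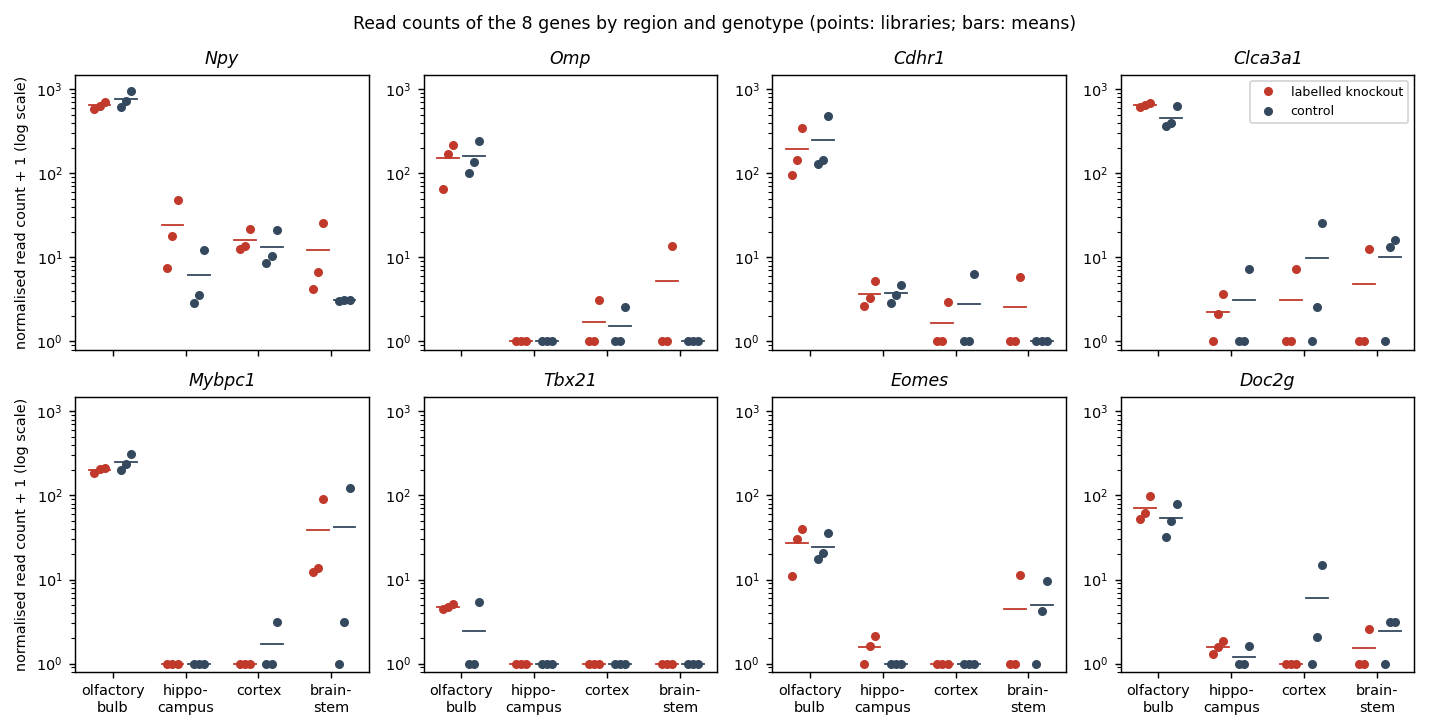
Normalised read count plus 1 (log axis) of each of the 8 genes in every library, by region, with libraries labelled knockout left of controls; points are libraries and bars are group means of 3. The olfactory bulb points lie above those of the other regions for 6 genes. The exceptions are Eomes, with 9.99 in its lowest olfactory bulb library and 10.3 in a brainstem library, and Tbx21, which stays under 5. Mybpc1 reaches 122 in a brainstem control, below its lowest olfactory bulb value of 184.

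The label of olfactory bulb-restricted genes held to a different degree for each member. For 6 of the 8 genes, all 6 olfactory bulb libraries lay above all 18 others. The same was true of 2.01% of the 12756 genes with at least 20 normalised counts in at least 3 libraries, and of the 8 members 7 passed that filter, all but Tbx21. The exceptions were Tbx21, which had no reads in 2 olfactory bulb controls, and Eomes. Omp had 98.3% of its summed level in the olfactory bulb libraries, Cdhr1 97.9%, Clca3a1 97.6%, Npy 95.3% and Doc2g 94.1%. These 5 were past 90%, where 0.204% of the genes in the filter lay, while Eomes had 86.2% and Mybpc1 84.9%, just under it. Since the regional pattern chose the members, nothing is read from these shares.

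Per kilobase of exon, which allows genes to be set beside each other, Npy stood apart. Its level in olfactory bulb was 1137 ± 116 normalised counts per kilobase in libraries labelled knockout and 1353 ± 298 in controls (SD, n = 3 each), the 99th highest mean of the 12303 genes ranked. Clca3a1 followed with a mean of 143 per kilobase over the 6 libraries and Omp with 72.1. Cdhr1 and Mybpc1 had levels of 51.4 and 49.8 per kilobase. Clca3a1 lay above Omp in each of the 6 libraries, whereas Omp, Cdhr1 and Mybpc1 changed order from library to library. Doc2g had 20.2 per kilobase, Eomes 5.96 and Tbx21 1.05. The Doc2g value is divided by all 3035 exonic bases, of which 1926 are shared with Gm49405, so its place is uncertain. The factors of the mitral and tufted cells were thus the lowest of the set, below the other genes of the same neurons.

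The genotypes were compared with limma on the logarithm of the deposited values. No member passed the adjusted p threshold of 0.05 in olfactory bulb: 0 of the 7 members tested were called and 0 had an unadjusted p below 0.05. Of all 12670 genes tested, 11 were called (0.0868%), 2 higher (0.0158%) and 9 lower (0.071%) in libraries labelled knockout. With edgeR's quasi-likelihood test 0 of the 7 were called and 0 had an unadjusted p below 0.05, against 12 genes called and 5.56% with such a p over all genes. With DESeq2 0 were called and 0 had an unadjusted p below 0.05, against 58 and 6.37% over all genes, and Eomes and Doc2g were given no adjusted p. The median log2 change of the 7 members was -0.14, against -0.0083 over all genes tested.

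Npy, whose reads these bulk libraries cannot assign to interneurons or glia, averaged 643 ± 65.4 in libraries labelled knockout and 766 ± 169 in controls (SD, n = 3 each). Its log2 change was -0.23 (SE 0.49, 95% interval -1.23 to 0.77, limma adjusted p = 1). Omp changed by -0.14 on the log2 scale (SE 0.52, interval -1.21 to 0.92, limma adjusted p = 1). Leaving out control 1 gave 0.20 for Omp and leaving out labelled knockout 2 gave 0.35, so the sign of its difference rests on those libraries. For neither gene does the interval of this fit of all 24 libraries leave out a 1.5-fold difference in either direction.

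Of the mitral and tufted cell genes, Cdhr1 had a log2 change of -0.29 (SE 0.52, interval -1.36 to 0.78, limma adjusted p = 1). Without control 2 its value was 0.31 and without labelled knockout 1 it was 0.11. Eomes had 0.03 (SE 0.54, interval -1.08 to 1.14, limma adjusted p = 1), with -0.15 when control 1 and -0.05 when control 3 was left out. Doc2g had 0.43 (SE 0.49, interval -0.58 to 1.44, limma adjusted p = 1), with 0.14 without control 2 and 0.17 without labelled knockout 3. The genes of these neurons thus gave differences of both signs, each smaller than its SE in this fit of all 24 libraries. In the olfactory bulb libraries alone the SE of Doc2g was 0.36, below its difference, with an interval of -0.33 to 1.19 (limma adjusted p = 0.790).

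Clca3a1 had the largest difference of the 7, with a log2 change of 0.54 (SE 0.59, interval -0.68 to 1.75, limma adjusted p = 1). In a fit of the 6 olfactory bulb libraries alone its SE was 0.18 and its interval 0.16 to 0.92, a fold of 1.12 to 1.89, with an unadjusted p of 0.00811 and a limma adjusted p of 0.263. It was the 1 member with an unadjusted p below 0.05 in that fit, as were 9.22% of all genes, and the fit called 92 of 11017 genes and none of the 7. Mybpc1 had -0.28 (SE 0.75, interval -1.82 to 1.26, limma adjusted p = 1). The SEs over all 24 libraries also draw on libraries where a member was near 0, and in the olfactory bulb alone the SE was 0.16 for Npy, 0.21 for Mybpc1 and 0.73 for Cdhr1. With those libraries alone the interval of Npy was -0.56 to 0.10 and that of Mybpc1 -0.71 to 0.15.

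**Figure D2:**
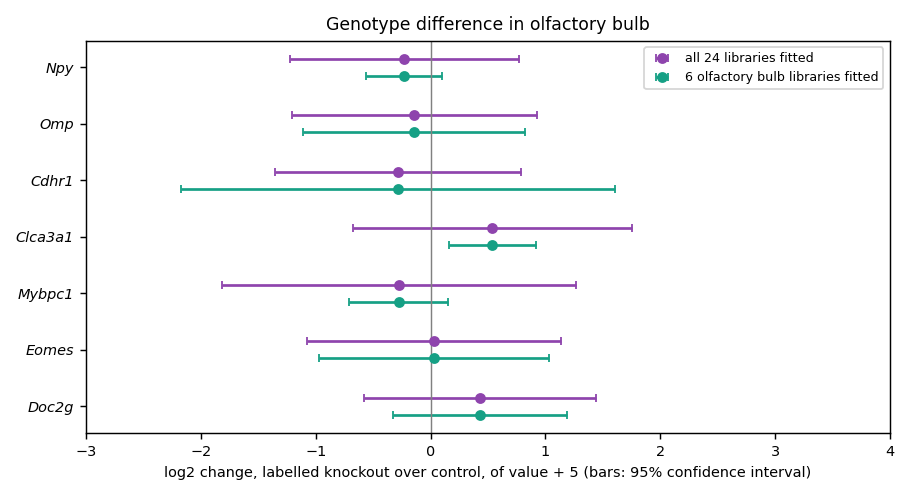
Log2 change of (value + 5) in libraries labelled knockout over controls in olfactory bulb, with 95% confidence intervals, from a fit of all 24 libraries and of the 6 olfactory bulb libraries alone. Every interval spans 0 except that of Clca3a1 in the second fit (0.16 to 0.92), whose adjusted p was 0.263.

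The genotype difference in olfactory bulb was also set against the mean genotype difference of the other 3 regions. Most members lay near 0 in those regions, so this difference rests partly on values of few reads. By limma 0 of the 7 members were called and 0 had an unadjusted p below 0.05, and 0% of the 12670 genes were called, 654 of them with an unadjusted p below 0.05. Npy had the value farthest from 0, with -1.07 (SE 0.56, limma adjusted p = 0.966), and Clca3a1 had 0.98 (limma adjusted p = 0.976). On recovered reads Npy had -1.95 with DESeq2 (unadjusted p 0.0189, adjusted p = 0.656), and with edgeR the value had the same sign (unadjusted p 0.00868, adjusted p = 0.736), so 0 members were called by either tool. Npy was the 1 member with an unadjusted p below 0.05, against 6.13% of all genes with DESeq2 and 5.27% with edgeR. The low Npy counts of hippocampus averaged 23.4 ± 20.8 in libraries labelled knockout and 5.21 ± 5.13 in controls, and those of brainstem 11.1 ± 11.6 and 2.10 ± 0.07 in the same groups (SD, n = 3 each). Mybpc1 had -0.52 by limma but 0.74 with edgeR and 0.61 with DESeq2, and Eomes had 0.04 by limma but -0.78 with edgeR and -0.60 with DESeq2.

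Within the olfactory bulb the members differed in which libraries were high, and the order did not follow the label. Cdhr1 was highest in control 2 and in the library labelled knockout 3. That pair was picked after the values were seen, and it was the top pair for 6.98% of the 12756 genes, for 1 of the 7 members, for 3 of 6 other mitral and tufted cell genes and for 5 of 12 pan-neuronal genes. It was also the top pair for 4 of 17 bulb interneuron genes, but for 0 of 7 sensory neuron, 0 of 8 neuroblast and 0 of 4 neuropeptide interneuron genes. Reln, a secreted glycoprotein of mitral cells, had 148, 381 and 537 normalised read counts in libraries labelled knockout and 219, 882 and 342 in controls. Slc17a7, the vesicular glutamate transporter, had 85.4, 47.1 and 119 in libraries labelled knockout and 57.3, 167 and 62.8 in controls. Over the whole mitral and tufted list, the summed level ran from 366 to 907 in libraries labelled knockout and from 453 to 1379 in controls. In the libraries outside the olfactory bulb the same sum ran from 225 to 1222, so it is not particular to bulb neurons. The part of neuronal RNA in the Cdhr1 values was not tested.

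Omp was highest in control 1 and in the library labelled knockout 3. Among other sensory neuron genes, S100a5, a calcium-binding protein, had 154, 46.4 and 57.4 normalised read counts in libraries labelled knockout and 149, 67.6 and 42.6 in controls, and no read in the other regions. Stoml3, a stomatin family protein, had 121, 104 and 319.7 in libraries labelled knockout and 114, 99.8 and 106 in controls. The order of libraries thus differed among sensory neuron genes. The channel subunit genes of sensory transduction were at or near 0: Cnga2 reached 9.99 and Cngb1 10.5 at most in any olfactory bulb library. The sensory neuron list summed to 492 to 768 in libraries labelled knockout and 349 to 678 in controls. Outside the olfactory bulb that list summed to 206 to 472, which overlaps the range of the controls. The part of sensory neuron RNA in the Omp values was not tested.

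**Figure D3:**
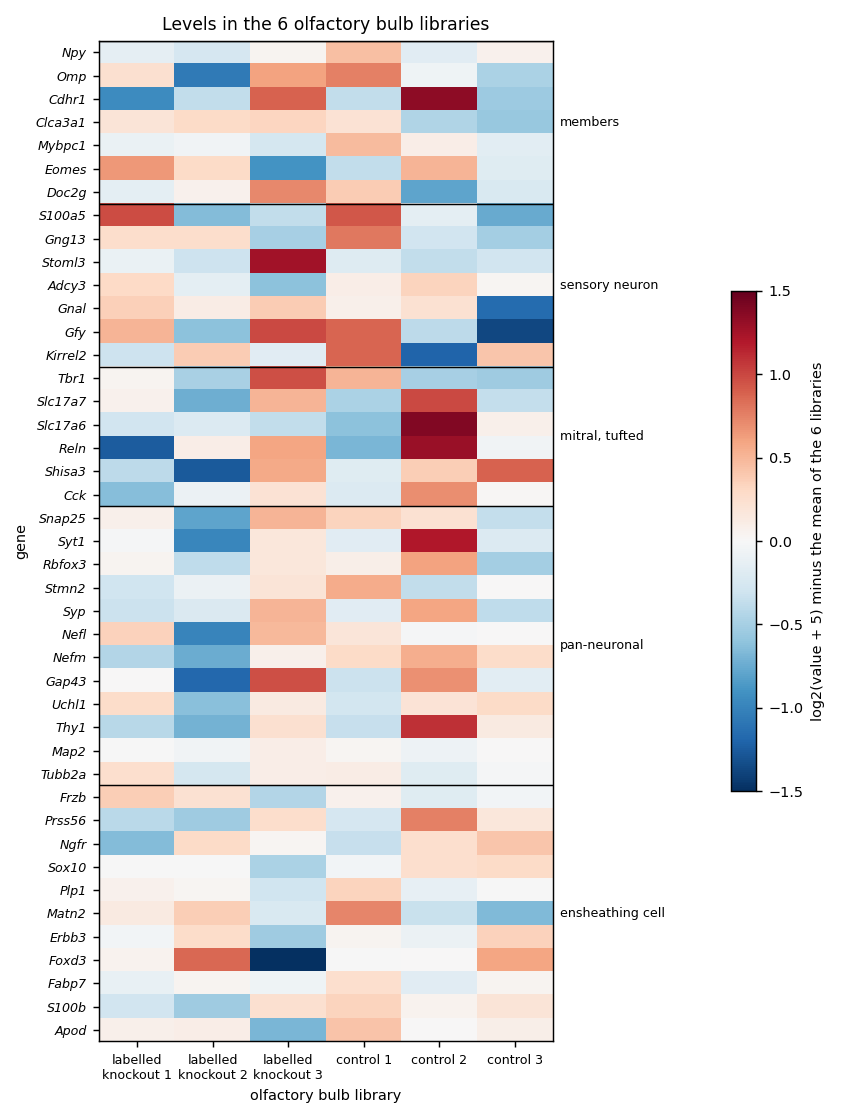
Log2(value + 5) minus the mean of the 6 olfactory bulb libraries for 7 of the genes and for genes of 4 marker lists, with libraries labelled knockout left of controls. Cdhr1, Reln and Slc17a7 share control 2 and labelled knockout 3 as their 2 highest libraries, whereas Npy, Omp and Doc2g do not.

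The genes outside the 8 that were most like each member over the 24 libraries were named by the smallest mean absolute difference of centred log2 profiles. For Omp they were Stoml3 (0.26), S100a5 (0.43) and Sphk1 (0.49), against a median of 1.82 over all genes. Cdhr1 was also nearest to Stoml3 (0.48) and Sphk1 (0.50), a sphingosine kinase gene, followed by the claudin gene Cldn19 (0.56), and among the members Omp (0.52) was the nearest to it. For Npy they were Frzb (0.63), a secreted Wnt antagonist and ensheathing cell marker, Sez6 (0.75) and Sp8 (0.78), a zinc-finger factor of bulb interneurons. Mybpc1 was nearest to Stoml3 (0.79), Sp8 (0.85) and Lgr5 (0.88), and Clca3a1 to Sphk1 (0.86), Gpr50 (0.95) and Stoml3 (0.99). Eomes had Tmprss5 (0.34), Glra4 and Foxd3 (0.38 each), against a median of 1.01 over all genes. Doc2g had Ltbp2 (0.34) and S100a5 (0.37), against a median of 1.37. All of these profiles share the same 24 libraries and the step between olfactory bulb and the other regions.

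In brainstem, Mybpc1 was the only member with a mean high enough to test. It averaged 38.2 ± 45.1 deposited normalised counts in libraries labelled knockout and 41.7 ± 70.4 in controls (SD, n = 3 each), with a log2 change of 0.87 (SE 0.75, limma adjusted p = 0.625), so the means and the log values differ in sign. It was not called, and 0.773% of all genes were. Without control 3 the log2 change was 2.35 (limma adjusted p = 0.0689), without control 2 it was 0.01, and with DESeq2 it was -0.10, so no direction can be given. Both Mybpc1 and Eomes were highest in the brainstem library labelled knockout 1 and in control 3, the top pair for 4.21% of genes.

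Genes of cerebellar granule cells, Purkinje cells and cerebellar glia, a list of 10 drawn up after the brainstem values were seen, were set beside them. Of the 10, 5 had the same top pair (Gdf10, Cbln3, Gabra6, Cbln1 and Pcp2), and Neurod1, Barhl1, Car8, Calb1 and En2 did not. Of the 5 cerebellar genes that passed the filter behind the 4.21%, 2 had that pair. Gdf10, a growth factor of Bergmann glia, had 149, 38.4 and 22.9 normalised read counts in brainstem libraries labelled knockout and 17.0, 4.05 and 75.0 in controls. Cbln3, a synaptic organiser of granule cells, had 92.5, 3.20 and 5.72 in libraries labelled knockout and 4.26, 16.2 and 197 in controls. Gabra6, the granule cell subunit of the GABA-A receptor, had 34.7, 0 and 0 in libraries labelled knockout and 10.6, 18.2 and 62.2 in controls. Whether cerebellar tissue entered those libraries was not tested. The list summed to between 127 and 1315 normalised counts over the 18 libraries outside the olfactory bulb, against 77.3 to 169.8 in olfactory bulb libraries labelled knockout and 56.2 to 146 in olfactory bulb controls.

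**Figure D4:**
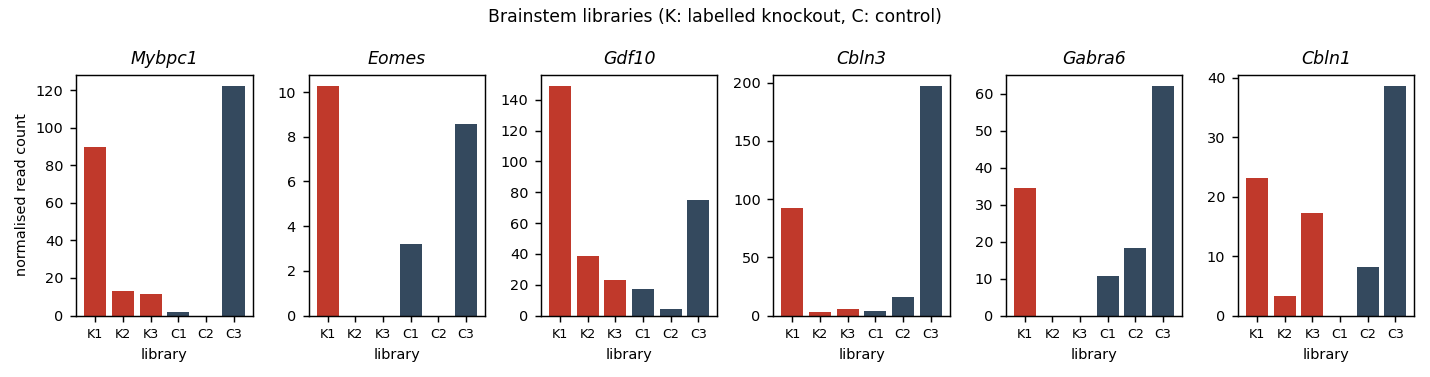
Normalised read counts of Mybpc1, Eomes and 4 cerebellar genes in each brainstem library, labelled knockout (K) left of control (C). All 6 genes are highest in labelled knockout 1 and control 3, and the 4 cerebellar genes were chosen for display after that pair had been seen.

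Few of the other genes of the olfactory bulb's cell types were called between genotypes, and limma called only 0.0868% of all 12670 genes. Counts of 0 in lists this short lie near that share and are not read as a result about these cell types. Of 11 ensheathing cell genes tested 0 were called (median log2 change -0.22), and 0 of 7 sensory neuron genes (0.01), 0 of 6 mitral and tufted cell genes (-0.35), 0 of 17 bulb interneuron genes (-0.29) and 0 of 8 neuroblast genes (-0.26). Likewise 0 of 12 pan-neuronal genes (-0.13) and 0 of 4 genes of neuropeptide interneurons (-0.44) were called by limma. The median over all genes was -0.0083, and 12 of the 13 lists had a median below 0. Etv1, an interneuron transcription factor, was called higher in the fit of the 6 olfactory bulb libraries alone, which called 92 of 11017 genes. Sst, the somatostatin gene, was called lower by DESeq2, which called 58 of 12670 genes.

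Markers of the sorted cell type were present throughout: the 16 astrocyte markers summed to 328095 to 338656 normalised counts in the olfactory bulb libraries labelled knockout and 328948 to 391754 in controls. Of those 16, 1 was called, Gfap, the astrocyte intermediate filament, which was lower in libraries labelled knockout with a log2 change of -1.16 (SE 0.23, limma adjusted p = 0.0395). The main fit called 0.0868% of all genes. In the fit of the 6 olfactory bulb libraries alone, 3 of the 16 were called, 1 higher and 2 lower (Gfap, Ntsr2 and Slc1a3), against 92 of all 11017 genes. Microglia gave 0 calls of 12 (median -0.76), oligodendrocytes 0 of 11 (-0.41), their precursors 0 of 7 (-0.29), endothelial cells 0 of 10 (-0.27), and mural cells and fibroblasts 0 of 10 (-0.12). Of the 12 microglial genes, 4 had an unadjusted p below 0.05 by limma, 6 with edgeR and 7 with DESeq2. In the fit of the olfactory bulb libraries alone 8 had such a p. Over all genes the shares were 5.2%, 5.56%, 6.37% and 9.22% in that order. Oligodendrocyte markers summed to 9261 to 14290.3 in libraries labelled knockout and 9942 to 16523 in controls, and microglial markers to 1884 to 2668 in libraries labelled knockout and 2077 to 5501 in controls. Markers of other cell types were thus present in both groups, and their part in the members' values was not tested.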

How the data were processed

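RNA from sorted astrocytes was made into libraries with a low-input whole-transcriptome kit, per the labels' protocols. FastQC, STAR 2.5.0a, DESeq2 1.20.0 and the mm10 genome are named in the submitters' processing notes. The counting tool, annotation and any filter are not given in the sources used here. The authors deposited a normalised read signal for 24421 rows in each library. Each value was a whole read count divided by 1 factor per library (tolerance 0.01 read), so reads were recovered, and the cortex factors were on another scale. For levels between regions, reads were divided by median-of-ratios size factors over 24 libraries (11534 genes).

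Within regions the main test was limma 3.58.1 (R 4.3.3; trend, robust, 16 residual degrees of freedom) on log2(deposited value + 5), for genes with at least 20 in at least 3 libraries. Fold changes on that scale understate those of low genes. P-values were Benjamini-Hochberg adjusted over all genes, with a threshold of 0.05. A member was tested in a region where its mean was at least 20, which left hippocampus and cortex without tests of their own. The difference between regions was tested for members with such a mean in olfactory bulb, and it includes regions where most of them lay near 0. On simulated counts this fit recovered 25 of 100 genes changed 2-fold and 76 of 100 changed 4-fold, and called 9 of the unchanged among 12510 genes. Alternatives were other added constants and filters, the joint scale, edgeR 4.0.16, DESeq2 1.42.0, a replicate block, single regions and leaving out each library. Genes resembling a member were the 3 nearest in profile, of which 1 is not reported here. Members, marker lists and this rule were chosen with earlier results of these data known.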

Additional observations from a re-analysis of the deposited data

How the results depend on the processing

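No member passed the threshold under any alternative run. The count of genes called in olfactory bulb (11) was 22 with an added constant of 20, 58 with DESeq2, 19 with the replicate block and 92 with olfactory bulb libraries alone, and 3 to 9 when 1 library was left out. In brainstem (98) it was 32 with edgeR, 167 with DESeq2, 0 in brainstem libraries alone (where Mybpc1 did not pass the filter) and 17 to 889 when 1 library was left out. For the difference between olfactory bulb and the other regions (0) it was 1 with edgeR, 4 with DESeq2 and 2 with the replicate block. Same-numbered libraries did not deviate together in every pair, with correlations of 0.12, -0.0029 and 0.03 in olfactory bulb. The correlations were 0.27, 0.04 and 0.32 in hippocampus, 0.09, -0.03 and 0.14 in cortex, and -0.03, -0.11 and 0.12 in brainstem. Those of unlike-numbered libraries ran from -0.094 to 0.071 in olfactory bulb and -0.29 to 0.03 in hippocampus. They ran from -0.15 to 0.06 in cortex and -0.12 to 0.16 in brainstem. In hippocampus each same-numbered correlation thus lay above every unlike-numbered one. Centring within each group ties these values to each other. Whether the numbers pair samples is not known. The main fit does not pair libraries by number, and the replicate block does. Signs that turned were Mybpc1 in brainstem with DESeq2 (-0.10) and, for the difference between regions, Eomes (-0.78 with edgeR, -0.60 with DESeq2) and Mybpc1 (0.74 with edgeR, 0.61 with DESeq2). With 1 library left out, the olfactory bulb changes ran from -0.80 to 0.31 for Cdhr1, -0.15 to 0.48 for Eomes and -0.48 to 0.35 for Omp. For Eomes these are 3 of the 6 such fits, since it missed the filter without control 2, labelled knockout 1 or labelled knockout 2. The differences between regions ran from -0.85 to 0.26 for Cdhr1, -0.14 to 0.49 for Eomes and -0.70 to 0.14 for Omp. The cause was not tested. Tbx21, with 16 reads, was too shallow to compare. In the simulation the fit of all 24 libraries left most 2-fold changes uncalled. Its changed genes were drawn from all with a mean of at least 20 in olfactory bulb, so that share need not hold for the members.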

Other observations

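Some genes fixed as markers also lay mostly in the olfactory bulb libraries, and those named here lie above the median of their lists. The median share of summed level there was 63.2% for 11 ensheathing cell genes, of which 2 were past 90%. It was 60.3% for 17 bulb interneuron genes, with 1 past 90%. For 7 sensory neuron genes it was 81.5%, with 3 past 90%, and for 6 mitral and tufted cell genes 24.9%, with 0 past 90%. Frzb averaged 791 ± 218 normalised counts in libraries labelled knockout and 718 ± 62.0 in controls of the olfactory bulb (SD, n = 3 each), with 94.1% of its summed level there. Foxd3, a neural crest transcription factor, averaged 44.1 ± 33.5 in libraries labelled knockout and 48.7 ± 13.6 in controls, with 93.9%. Fabp7, the brain fatty acid-binding protein, averaged 13681 ± 743 in libraries labelled knockout and 14585 ± 2115 in controls, and had 79.3% of its summed level there. Of the bulb interneuron genes, 6 of 17 had all 6 olfactory bulb libraries above all others, as had 4 of 11 ensheathing cell genes and 4 of 7 sensory neuron genes, but 0 of 6 mitral and tufted cell genes. Sp8 averaged 297 ± 60.8 in libraries labelled knockout and 268 ± 19.6 in controls.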
